A study of Sus scrofa with 105 samples.

Results

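The microRNAs (miRNAs) miR-99a, miR-99b and miR-100 of the miR-99/100 family and miR-125a and miR-125b of the miR-125 family were followed across 2 brain regions and 4 groups of piglets. Members were taken by name: every deposited entry whose mature name is miR-99a, miR-99b, miR-100, miR-125a or miR-125b, with or without an arm suffix. The rule found 7 entries, which gave 6 members of the 448 distinct miRNAs in the table: ssc-miR-99a-5p, ssc-miR-99a-3p, ssc-miR-99b, ssc-miR-100, ssc-miR-125a and ssc-miR-125b (ssc for Sus scrofa, left off below). The 2 entries for miR-125b, from its precursors miR-125b-1 and miR-125b-2, differed by at most 0.365% in any library and were counted as 1 member. Mature miRNAs that differ by few bases, as do miR-99a-5p and miR-100 or miR-125a and miR-125b, may share reads, so the split between such a pair is uncertain.

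Small RNA had been sequenced from brain blocks of female piglets, fixed and embedded in paraffin, to follow diffuse traumatic injury of the young brain. Of the frontal lobe, 18 libraries came from sham or naive animals with a survival of 0 to 8 days, 10 from injured animals at 1 day, 15 from injured animals at 1 week (6 to 8 days), and 9 from animals that received cyclosporine A (CsA), which inhibits calcineurin, after injury. The hippocampus with the amygdala gave 18, 10, 15 and 10 libraries in the same order. CsA was infused intravenously at 20 mg/kg per day from a loading dose at 6 hours after injury, and these animals survived 30 hours, so treatment and survival time differ together from the untreated 1 day group. Sham and naive animals are not told apart in the labels. The question the groups address is how miRNA levels differ after injury and with CsA. The animal code in the library names ties 52 animals to a library of each region. The names hold 53 codes, while the submitters' design text speaks of 50 subjects, and this difference is not resolved here. If each code is 1 animal, the replicates are animals. Otherwise the p-values measure only the spread between these libraries.

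The 2 families are transcribed in mammals from clusters that also hold a let-7 miRNA. In the pig RefSeq annotation (assembly Sscrofa11.1) MIR125A, MIRLET7E and MIR99B are neighbours in that order, MIR125B-1, MIRLET7A-1 and MIR100 are neighbours, and MIR99A lies next to MIRLET7C. miR-99a, miR-99b and miR-100 belong to the miR-10 superfamily and are known for restraining the mTOR and IGF1 receptor pathway. miR-125 is the mammalian counterpart of worm lin-4, is abundant in brain, and is known for promoting neuronal differentiation and for shaping dendritic spines. From the miR-99a precursor both arms were counted: miR-99a-5p is the abundant arm and miR-99a-3p the minor, passenger arm.

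All 6 members were counted in every library and passed the filter on low counts. The library total was between 98008 and 12703535 counts (median 7257404), and only 3 libraries, all sham, had a total under 1000000. The median total of the frontal lobe was 4679652 in sham and 9866050 at 1 day, against 5365075 and 9223635 in the hippocampus and amygdala. Depth therefore moved with the group. The let-7 family with miR-98 held most counts, from a mean of 73.5% at 1 day in the hippocampus and amygdala to 80.4% in frontal sham libraries. The neuronal, oligodendrocyte, microglial and endothelial marker miRNAs were all detected, with a summed level of neuronal markers from 19400 to 34800 CPM (defined below) over all sham libraries. In bulk tissue, fewer cells of a type and less of a miRNA per cell cannot be told apart.

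Together the members made up 1.11% ± 0.233 (SD, n = 18) of the counts in frontal sham libraries and 1.34% ± 0.210 (SD, n = 18) in sham hippocampus and amygdala. Levels are given as CPM after TMM scaling, the count as a share of the scaled library total in units of 1 per 1000000. miR-125b was the most abundant member, with a mean of 5131 CPM over all frontal libraries and 6364 CPM over all libraries of the hippocampus and amygdala, rank 22 of 284 and rank 18 of 290 miRNAs. miR-99a-5p followed with 2192 and 2763 CPM, miR-100 with 1757 and 2077, and miR-125a with 1699 and 2313. miR-99b stood lower at 717 and 1086 CPM. The passenger arm miR-99a-3p was the scarcest, with 32.5 and 37.8 CPM. In the shallowest library it rested on 1 count. The superfamily relatives miR-10a-5p and miR-10b, whose genes lie beside HOXB3 and HOXD3, were scarce, with means of 2.82 and 2.87 CPM in the frontal lobe.

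**Figure D1:**
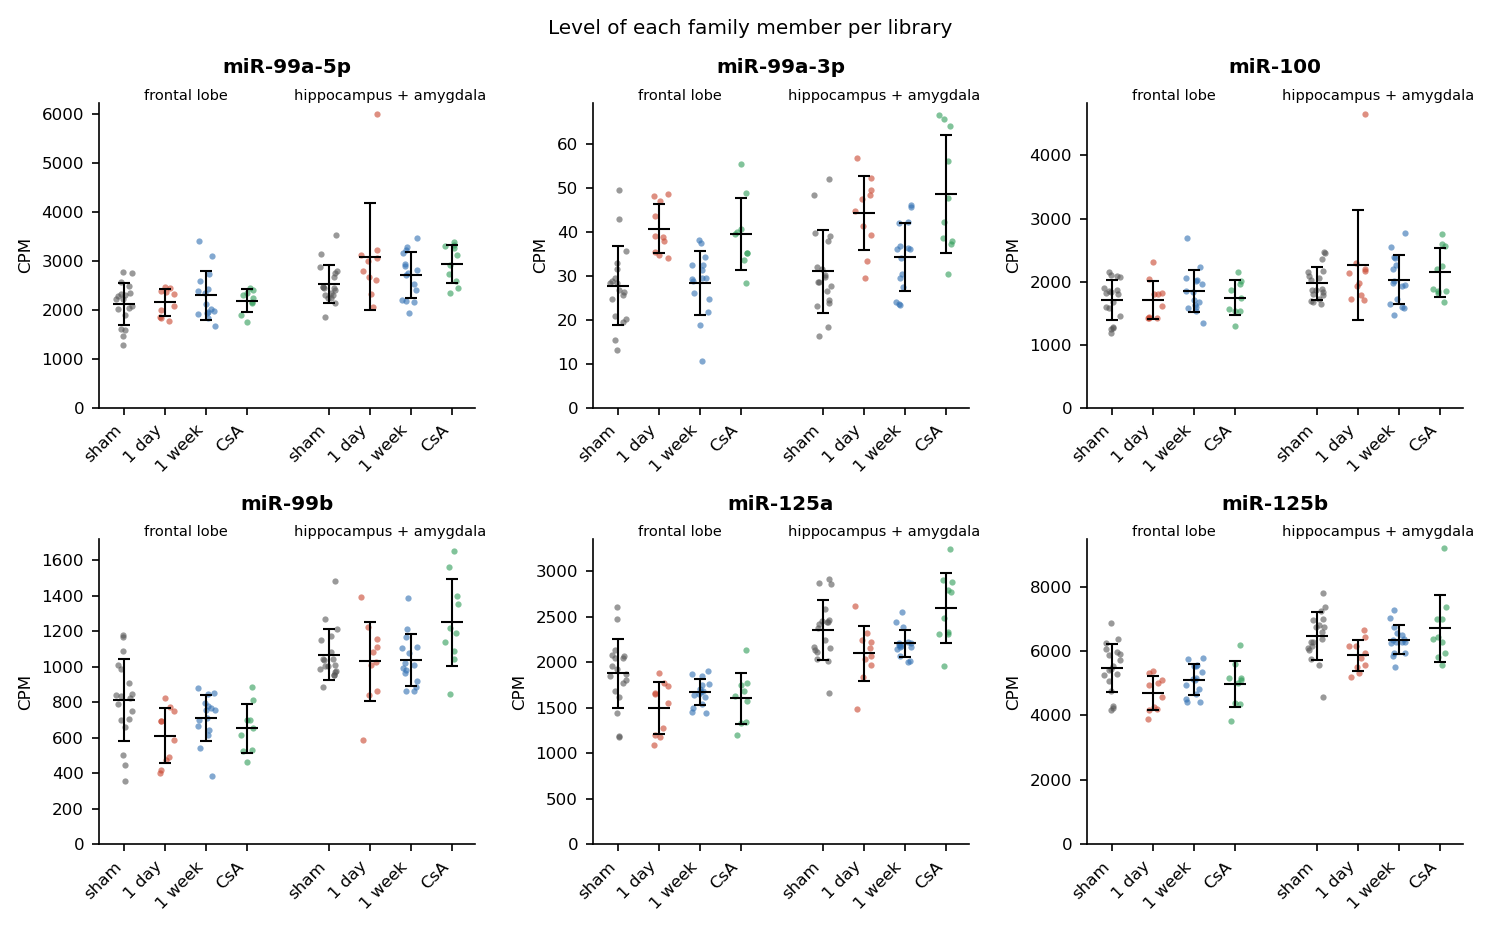
Level of each member in every library, in CPM scaled within each region (linear axis from 0), by group and region. Points are libraries, bars the mean and SD. The 1 day and CsA libraries of miR-99a-3p lie high in both regions, miR-99b, miR-125a and miR-125b lie higher in the hippocampus and amygdala than in the frontal lobe, and a single 1 day library reaches 5997 CPM of miR-99a-5p and 4663 CPM of miR-100.

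At 1 day after injury the passenger arm miR-99a-3p rose in both regions, its partner arm miR-99a-5p rose in the hippocampus and amygdala, and the 3 members miR-99b, miR-125a and miR-125b fell in the frontal lobe. miR-99a-3p had a lowest, median and highest level of 13.3, 27.6 and 49.6 CPM in frontal sham libraries and of 34.1, 39.0 and 48.7 CPM at 1 day. All 10 of the 1 day libraries were above the sham median, and the ranges overlapped. The difference was 0.51 ± 0.14 on the log2 scale (SE), a 1.43-fold rise (adjusted p = 0.00326, edgeR). For the hippocampus and amygdala the levels were 16.3, 29.2 and 52.0 CPM in sham and 29.6, 46.2 and 56.8 CPM at 1 day. Again all 10 injured libraries were above the sham median, with a log2 difference of 0.50 ± 0.14 (SE, adjusted p = 0.00424).

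miR-99a-5p, the guide arm of the same precursor, had frontal levels of 1278, 2231 and 2778 CPM in sham and 1775, 2206 and 2470 CPM at 1 day, a log2 difference of 0.02 ± 0.10 (SE, adjusted p = 0.905). Its levels in the hippocampus and amygdala were 1848, 2448 and 3525 CPM in sham and 2054, 2904 and 5997 CPM at 1 day. There the log2 difference was 0.29 ± 0.11 (SE, adjusted p = 0.0209), and 8 of 10 injured libraries were above the sham median. The call rested on the library of 5997 CPM (1 day replicate 10): without it the log2 difference was 0.125 and the adjusted p 0.276. It was also lost without 1 day replicate 3, with RLE scaling (adjusted p = 0.0507), with DESeq2 (adjusted p = 0.0627), with let-7 left out (adjusted p = 0.0527) and with entries not merged (adjusted p = 0.0922). miR-100, which has nearly the same mature sequence, had a log2 difference of -0.00 ± 0.10 (SE) in the frontal lobe, against 0.19 ± 0.11 (SE, adjusted p = 0.141) in the other tissue. The levels of miR-100 there were 1640, 1877 and 2464 CPM in sham and 1703, 2064 and 4663 CPM at 1 day, the highest being the same library.

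miR-99b, the third miR-99 member, showed the opposite direction in the frontal lobe. Its levels were 355, 830 and 1176 CPM in sham and 401, 640 and 824 CPM at 1 day, and all 10 injured libraries were below the sham median. It fell by 0.41 ± 0.14 on the log2 scale (SE, adjusted p = 0.0186). Its cluster partner miR-125a went from 1185, 1902 and 2610 CPM to 1091, 1599 and 1882 CPM, also with 10 of 10 below the sham median, and fell by 0.32 ± 0.10 (SE, adjusted p = 0.00748). miR-125b went from 4168, 5484 and 6864 CPM to 3888, 4768 and 5370 CPM and fell by 0.22 ± 0.07 (SE, adjusted p = 0.0124). Every one of these ranges overlapped with that of sham. The falls of miR-99b and miR-125b were lost without 1 day replicate 1 or 1 day replicate 2, with adjusted p up to 0.0688 and 0.0774. With RLE scaling and with let-7 left out of the table neither passed: miR-99b had -0.33 in both (adjusted p = 0.05 and 0.0527), while miR-125b had -0.14 in both (adjusted p = 0.091 and 0.118). DESeq2 did not call miR-125b either (-0.14, adjusted p = 0.0941).

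Outside the frontal lobe, in the hippocampus and amygdala, these 3 members did not pass the threshold. miR-125a had a log2 difference of -0.17 ± 0.08 (SE, adjusted p = 0.0608) and miR-125b of -0.14 ± 0.07 (SE, adjusted p = 0.0712). Both passed with RLE scaling (-0.21 and -0.18), with DESeq2, with let-7 left out, with entries not merged and without libraries under 1000000 counts. Under RLE scaling and DESeq2 miR-125b thus passed here and not in the frontal lobe. miR-99b had a log2 difference of -0.05 ± 0.10 (SE, adjusted p = 0.680). The difference between the regions in the 1 day effect was tested as an interaction and passed for no member (adjusted p from 0.856 to 0.977).

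These counts stood against a broad change. At 1 day in the frontal lobe 18.7% of the 284 miRNAs tested were called higher and 26.1% lower, against 1 and 3 of the 6 members. Of the 290 tested in the hippocampus and amygdala 28.3% were called higher, against 2 members. The members' median log2 difference was -0.11 in the frontal lobe, beside -0.04 over all miRNAs, and 0.07 in the hippocampus and amygdala, beside 0.07 over all. With RLE scaling the frontal calls split into 74 higher and 63 lower instead of 53 and 74. Depth and cell-type markers moved with the same groups, and the part of the markers was not tested. With log10 of the library total as a covariate edgeR called 0 members at 1 day in each region, with 3 at an unadjusted p under 0.05 in each, and the log2 differences of miR-99a-3p were 0.28 and 0.295. With this covariate it called 56 of all 284 miRNAs in the frontal lobe and 57 of 290 in the hippocampus and amygdala. At an unadjusted p under 0.05 there were 91 and 110. Among sham libraries of the hippocampus and amygdala the level of miR-99a-3p rose with the log10 total (rho = 0.695, permutation p adjusted over 36 relations = 0.0448; r = 0.434, adjusted p = 0.349, and r = 0.418 without the 2 farthest libraries). Frontal sham libraries gave r = 0.634 and rho = 0.43 (adjusted permutation p = 0.0844 and 0.374), and r = 0.253 without the 2 farthest. In frontal 1 day libraries 2 of 3 oligodendrocyte markers were lower (median log2 -0.29, summed level 1140 to 1860 CPM against 1070 to 2580 in sham), 2 of 5 neuronal markers higher and 1 lower, and 0 of 5 microglial and leukocyte markers passed. For the hippocampus and amygdala 3 of those 5 were higher (summed level 351 to 491 CPM against 287 to 456 in sham) and 2 of 2 endothelial markers were higher (4740 to 7370 CPM against 3370 to 5620). In the frontal lobe 1 of 2 endothelial markers was higher. The hippocampus and amygdala had 0 of 3 oligodendrocyte markers past the threshold (median log2 -0.25), with 2 of 5 neuronal markers higher and 1 lower.

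The animal codes of sham, 1 day and CsA libraries share the beginnings 11, 12 and 13, whose meaning the labels do not give. In sham 6 animals had codes beginning with 11, 2 with 12 and 3 with 13, against 5, 2 and 3 at 1 day and 5, 4 and 1 with CsA. Of the other sham codes 1 began with 10, 3 with 14 and 3 with 16, which no 1 day or CsA code did. Group and code thus differ together in part. Among animals whose code begins with 11 the frontal log2 differences at 1 day were -0.38 for miR-125a, -0.28 for miR-125b, -0.48 for miR-99b and 0.57 for miR-99a-3p, of which miR-99a-3p passed (adjusted p = 0.037). Among those whose code begins with 12 or 13 they were -0.04, 0.04, -0.17 and 0.32, and edgeR called 0 members, with 0 at an unadjusted p under 0.05. Of all miRNAs tested in the frontal lobe it called 94 of 267 among codes beginning with 11. Among codes beginning with 12 or 13 it called 0 of 279, with 49 at an unadjusted p under 0.05. For the hippocampus and amygdala miR-99a-3p had 0.605 (adjusted p = 0.022) among codes beginning with 11 and 0.14 among the others, and miR-99a-5p had 0.01 and 0.34 without passing in either.

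**Figure D2:**
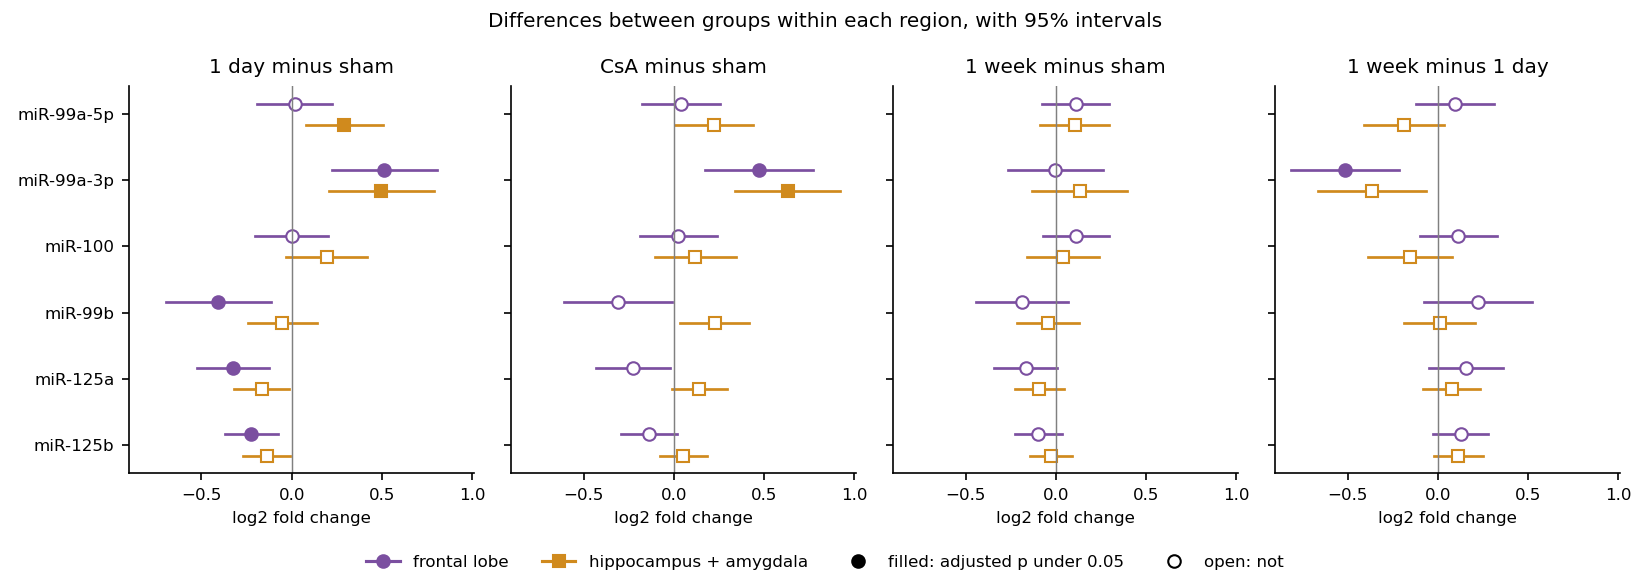
Log2 fold change of each member between groups (x axis) with its 95% confidence interval, for the frontal lobe (circles) and the hippocampus and amygdala (squares); filled symbols have an adjusted p under 0.05. miR-99a-3p lies between 0.47 and 0.63 at 1 day and with CsA against sham in both regions, and at -0.00 and 0.13 at 1 week.

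At 30 hours with CsA, miR-99a-3p was again higher than in sham in both regions, and no other member passed. In the frontal lobe its levels were 28.3, 39.6 and 55.4 CPM with CsA, all 9 libraries above the sham median, with a log2 difference of 0.47 ± 0.15 (SE, adjusted p = 0.0122). Those of the hippocampus and amygdala were 30.5, 45.0 and 66.6 CPM, all 10 above the sham median and 4 above the highest sham library. The log2 difference there was 0.63 ± 0.14 (SE, adjusted p = 0.00318), the rank 5 smallest p of the 290 miRNAs. Among codes beginning with 11 the frontal lobe difference was 0.45 (adjusted p = 0.228) and that of the hippocampus and amygdala 0.745 (adjusted p = 0.00941). Among codes beginning with 12 or 13 they were, in the same order, 0.26 and 0.29 and did not pass, and with the log10 total as a covariate they were 0.29 and 0.43 and did not pass. The share of all miRNAs called higher was 14.8% for the frontal lobe, against 11.0% for the hippocampus and amygdala. Marker miRNAs moved with CsA as well, and their part was not tested. In frontal libraries 1 of 3 oligodendrocyte markers was lower (summed level 1210 to 1680 CPM against 1070 to 2580 in sham), 2 of 5 neuronal markers were higher and 1 lower (25200 to 31900 CPM against 23400 to 34800), and 1 of 2 endothelial and 1 of 5 microglial and leukocyte markers were higher (5040 to 8420 CPM against 3170 to 7620, and 432 to 583 CPM against 357 to 580). With CsA in the hippocampus and amygdala 2 of 3 oligodendrocyte markers were lower (median log2 -0.36, summed level 502 to 986 CPM against 679 to 1290), 2 of 5 neuronal markers were higher (22700 to 31800 CPM against 19400 to 32500), and 0 endothelial and 0 microglial and leukocyte markers passed.

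The other members had differences of both signs with CsA, none past the threshold. miR-99b had a log2 difference from sham of -0.31 ± 0.15 (SE, adjusted p = 0.0937) in the frontal lobe, against 0.23 ± 0.10 (SE, adjusted p = 0.0822) in the hippocampus and amygdala. miR-125a had -0.23 ± 0.10 (SE, adjusted p = 0.0787) and 0.14 ± 0.08 (SE, adjusted p = 0.169). The interactions of region and CsA were 0.51 ± 0.18 (SE, adjusted p = 0.0837) for miR-99b and 0.34 ± 0.13 (SE, adjusted p = 0.105) for miR-125a, the only members at an unadjusted p under 0.05. edgeR called 0.0% of 298 miRNAs in each of the 3 interactions, with 73 at an unadjusted p under 0.05 for CsA, 9 for 1 day and 8 for 1 week. DESeq2 was not run on the interactions.

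CsA animals were also set against untreated animals at 1 day, with which they share the injury but not the survival time. Both comparisons with sham use the same sham libraries. miR-125a in the hippocampus and amygdala had levels of 1493, 2113 and 2623 CPM at 1 day and 1959, 2629 and 3247 CPM with CsA. With CsA 9 of 10 libraries were above the 1 day median and 5 were above the highest 1 day library. Its log2 difference of 0.31 ± 0.09 (SE) had the smallest p of all 290 miRNAs, yet an adjusted p of 0.107, and passed with DESeq2 (adjusted p = 0.0489). It also passed without 1 day replicate 6, CsA replicate 1 or CsA replicate 2. miR-99b and miR-125b had 0.28 ± 0.11 and 0.19 ± 0.07 (SE), each with an adjusted p of 0.128. edgeR called 0.0% of all miRNAs in this comparison (69 at an unadjusted p under 0.05), and DESeq2 called 7. For the frontal lobe edgeR called 0.0% (12 at an unadjusted p under 0.05) and DESeq2 called 0, and the members' log2 differences ran from -0.04 to 0.10.

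At 1 week no member differed from sham past the threshold in either region, and none had an unadjusted p under 0.05. Frontal log2 differences ran from -0.18 for miR-99b to 0.11 for miR-100, and those of the hippocampus and amygdala from -0.09 for miR-125a to 0.13 for miR-99a-3p. edgeR called 0.0% of the frontal miRNAs (19 at an unadjusted p under 0.05, 1 with DESeq2) and 0.345% of those of the hippocampus and amygdala (3 with DESeq2). miR-99a-3p at 1 week had frontal levels of 10.7, 29.4 and 38.3 CPM. All 15 libraries were below the 1 day median and 12 below the lowest 1 day library. It fell by 0.52 ± 0.15 on the log2 scale from 1 day to 1 week (SE, adjusted p = 0.00631), where 12.7% of miRNAs were called lower. The difference in the hippocampus and amygdala was -0.36 ± 0.15 (SE, adjusted p = 0.0581), with 14 of 15 libraries below the 1 day median, and 29.3% of all miRNAs were called there in either direction. The frontal calls split into 66 higher and 36 lower with TMM and 56 and 56 with RLE scaling, those of the hippocampus and amygdala into 34 and 51 with TMM and 39 and 37 with RLE. Animal codes differed between the 2 groups: at 1 day 5 began with 11, 2 with 12 and 3 with 13. At 1 week 4 began with 11, 0 with 12 or 13, and the others with other digits. The comparison of 1 week with 1 day was not tested within codes.

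Most members differed between the regions. Libraries of the same animals were compared with the animal as a block, and every member except miR-99a-3p was higher in the hippocampus and amygdala than in the frontal lobe in at least 1 group. That fit scaled the libraries of both regions together. The CPM were scaled for each region separately, so orders of means across regions, and possibly counts of animals, carry this limit. In those CPM the order of group means parted the regions for miR-99a-5p, miR-100, miR-99b, miR-125a and miR-125b. All 4 frontal means were below all 4 means of the hippocampus and amygdala. For miR-99a-3p the order in CPM parted the groups instead of the regions. The 4 means of sham and 1 week ran from 27.8 to 34.3 CPM, and the 4 means of 1 day and CsA from 39.6 to 48.7 CPM. Neighbouring means in each of these orders of CPM differed by less than the larger of their SDs.

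miR-99b differed most between the regions. In sham it had 355, 830 and 1176 CPM in the frontal lobe and 883, 1021 and 1484 CPM in the hippocampus and amygdala, and 16 of 18 animals were higher in the latter. The log2 difference was 0.38 ± 0.11 in sham (SE, adjusted p = 0.00213), 0.66 ± 0.14 at 1 day (adjusted p = 0.000122), 0.49 ± 0.12 at 1 week (adjusted p = 0.000381) and 0.90 ± 0.15 with CsA (adjusted p = 1.14e-06). All 15 animals at 1 week and all 9 with CsA had the higher level in the hippocampus and amygdala. miR-125a was higher in each group too, by 0.28 ± 0.07 in sham, 0.39 ± 0.10 at 1 day, 0.35 ± 0.08 at 1 week and 0.62 ± 0.10 with CsA (SE, adjusted p from 1.54e-06 to 0.00146). It was higher in 15 of 18, 8 of 10, 15 of 15 and 9 of 9 animals. miR-125b was higher by 0.18, 0.23, 0.26 and 0.33 in the same order (adjusted p from 0.000416 to 0.0108), in 15 of 18, 10 of 10, 15 of 15 and 8 of 9 animals. Its 1 day call was lost with no filter on low counts (0.16, adjusted p = 0.0919) and without the animals with a library under 1000000 counts (0.17, adjusted p = 0.0583).

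miR-99a-5p was higher by 0.19 in sham, 0.37 at 1 day and 0.40 with CsA (adjusted p from 0.00168 to 0.0365), and by 0.19 at 1 week without passing (adjusted p = 0.0632), though it passed there with entries not merged (adjusted p = 0.0418) and with let-7 left out (adjusted p = 0.0329). In sham the call was lost without the animals with a library under 1000000 counts, where the difference was 0.115 (adjusted p = 0.257). miR-100 passed with CsA, at 0.29 ± 0.12 (SE, adjusted p = 0.0283), and in no other group. That call was lost with no filter on low counts (0.24, adjusted p = 0.0895), and with entries not merged miR-100 passed in sham (0.22, adjusted p = 0.0284) and at 1 day (0.27, adjusted p = 0.0451) too. miR-99a-3p had differences from 0.00 at 1 day to 0.23 at 1 week (adjusted p from 0.0917 to 0.983). Against these counts, 21.8% of 298 miRNAs were called higher in the hippocampus and amygdala in sham (4 of 6 members), 25.2% at 1 day (4 members), 21.1% at 1 week (3 members) and 28.9% with CsA (5 members). Marker miRNAs differed between the dissections as well: in sham 2 of 3 oligodendrocyte markers were lower in the hippocampus and amygdala (median log2 -0.78), as were 4 of 5 neuronal and 2 of 2 endothelial markers, and their part in the members' differences was not tested. Of the let-7 neighbours, let-7e was higher in sham (0.21, adjusted p = 0.00836), let-7a lower (-0.19, adjusted p = 0.00141), and let-7c had a difference of -0.02.

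**Figure D3:**
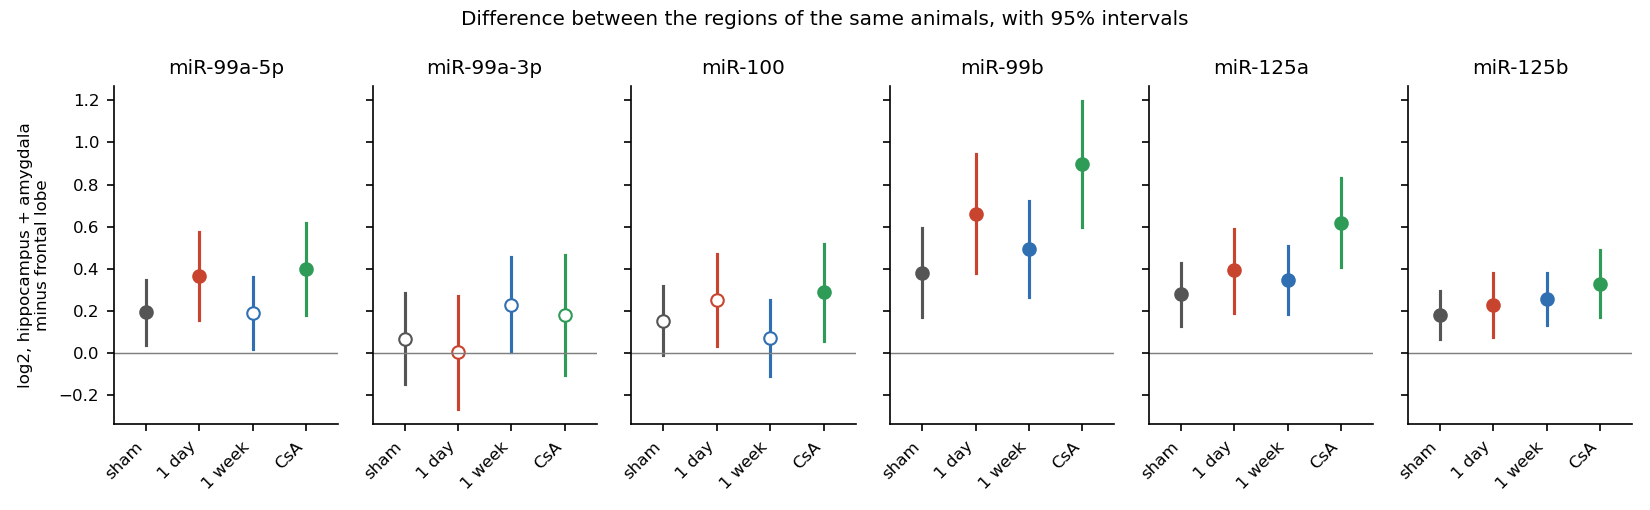
Log2 difference between the hippocampus with amygdala and the frontal lobe of the same animals (y axis) for each member and group, with 95% confidence intervals; filled circles have an adjusted p under 0.05. Every point lies at or above 0, and that of miR-99b with CsA is the highest at 0.90.

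A ratio of counts within a library does not depend on how libraries are scaled, so members were also set against a let-7 miRNA, against each other and, for miR-99a, against the other arm. For miR-99a-5p, miR-99b, miR-125a and miR-100 the let-7 was the annotated neighbour. miR-125b was set against let-7c, although the annotation used here shows only MIR125B-1, beside MIRLET7A-1. The ratio is log2((count + 0.5)/(count + 0.5)), and 12 ratios gave 120 permutation tests between groups (2-sided), of which 23 passed after Benjamini-Hochberg adjustment. miR-125a and miR-99b gained on let-7e, and miR-99a-5p and miR-125b on let-7c, at 1 day in both regions. The log2 ratio of miR-125a to let-7e had a lowest, median and highest value of -5.33, -4.76 and -3.86 in frontal sham libraries and -4.53, -4.21 and -3.98 at 1 day, with 10 of 10 injured libraries above the sham median. The difference in means was 0.50 (adjusted permutation p = 0.0054). For the hippocampus and amygdala the ratio was -5.31, -4.77 and -4.003 in sham and -4.44, -4.02 and -3.77 at 1 day, a difference of 0.63 (adjusted permutation p = 0.003).

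The other ratios to let-7 moved the same way. miR-99b gained on let-7e at 1 day by 0.43 in the frontal lobe and by 0.72 in the hippocampus and amygdala (adjusted permutation p = 0.0484 and 0.00463). miR-99a-5p gained on let-7c by 0.77 and 0.92 (adjusted permutation p = 0.0032 and 0.0024), and miR-125b on let-7c by 0.51 and 0.54 (adjusted permutation p = 0.0068 and 0.0032). In all 8 of these tests 10 of 10 injured libraries were above the sham median. The let-7 miRNAs themselves fell, 3 of 3 in the frontal lobe and 2 of 3 in the hippocampus and amygdala: let-7e fell by 0.87 and 0.85 on the log2 scale at 1 day in edgeR's test (adjusted p = 3.92e-05 and 9.02e-05), and let-7c fell by 0.77 and 0.70 (adjusted p = 0.000128 and 0.00018). let-7c had a mean of 395600 CPM in frontal sham libraries and 231800 CPM at 1 day, against 50310 and 27590 CPM for let-7e. miR-100 set against let-7a did not pass at 1 day (0.23 and 0.29, adjusted permutation p = 0.231 and 0.153).

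With CsA 7 of the 10 tests of a ratio to let-7 against sham passed, each with a higher ratio. The difference in the hippocampus and amygdala was 0.76 for miR-99b over let-7e, 0.69 for miR-125a over let-7e, 0.58 for miR-99a-5p over let-7c and 0.40 for miR-125b over let-7c (adjusted permutation p from 0.0024 to 0.037). In the frontal lobe it was 0.42, 0.475 and 0.57 for the first 3 (adjusted exact permutation p from 0.00794 to 0.0484), and 0.37 for miR-125b over let-7c, which did not pass (adjusted exact permutation p = 0.0503). miR-100 over let-7a did not pass in the frontal lobe (0.20, adjusted exact permutation p = 0.307) or in the hippocampus and amygdala (0.23, adjusted permutation p = 0.231). The calls for let-7c with CsA and for miR-99b at 1 day and with CsA in the frontal lobe were lost without some single libraries: for miR-99b without any of 23, for let-7c without CsA replicate 5 or 8 in the frontal lobe and CsA replicate 2, 5 or 9 in the hippocampus and amygdala. By 1 week the ratio of miR-125a to let-7e was lower than at 1 day, by 0.45 in the frontal lobe and by 0.52 in the hippocampus and amygdala (adjusted permutation p = 0.0434 for each). These calls were lost without any of 6 and any of 7 libraries, with adjusted p up to 0.0602 and 0.0642. The 1 week libraries were spread widely, from -5.44 to -4.24 in the frontal lobe for this ratio. The 1 day and CsA differences from sham, but not those of 1 week, were tested within animal codes as well: for miR-125a over let-7e in the hippocampus and amygdala they were 0.79 at 1 day for codes beginning with 11 (n = 5 and 6) and 0.28 for codes beginning with 12 or 13 (n = 5 and 5), with exact permutation p of 0.00216 and 0.00794 (adjusted 0.0519 and 0.0635). None of the 96 such tests within codes passed after adjustment (smallest adjusted p = 0.0519). Among sham libraries of the hippocampus and amygdala the ratio of miR-125b to let-7c rose with the log10 library total (rho = 0.68, permutation p adjusted over 36 relations = 0.0448; r = 0.537, adjusted p = 0.198, and r = 0.658 without the 2 farthest libraries). Frontal sham libraries gave r = 0.551 and rho = 0.224 for this ratio (adjusted permutation p = 0.198 and 0.634), and r = 0.0632 without the 2 farthest. The part of depth in the group differences was not tested for the ratios.

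Ratios between different miRNAs of the families, the 2 arms of miR-99a aside, passed in 1 comparison. miR-99b to miR-125a, the flanks of let-7e, differed between groups by -0.07 to 0.09 in 10 tests, none past the threshold (adjusted permutation p from 0.307 to 0.979). miR-125a to miR-125b differed by -0.10 to 0.13 and miR-99a-5p to miR-100 by -0.04 to 0.11, again with none past the threshold. miR-99a-5p gained on miR-125b at 1 day in the hippocampus and amygdala by 0.38 (adjusted permutation p = 0.0319). That call was lost without 1 day replicate 10, where the difference was 0.26 (adjusted permutation p = 0.0713).

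The ratio of the miR-99a arms had a lower mean than in sham, with relatively more of the passenger arm, at 1 day and with CsA in both regions. The difference passed at 1 day in the frontal lobe and with CsA in the hippocampus and amygdala. In frontal libraries the log2 ratio of miR-99a-5p to miR-99a-3p was 5.22, 6.41 and 7.09 in sham, 5.26, 5.67 and 6.15 at 1 day and 5.69, 6.35 and 7.40 at 1 week. None of the 10 libraries at 1 day was above the sham median, and all 15 at 1 week were above the 1 day median. The mean was lower by 0.53 at 1 day than in sham (adjusted permutation p = 0.0443) and higher by 0.64 at 1 week than at 1 day (adjusted permutation p = 0.00905). For the hippocampus and amygdala it was lower by 0.43 with CsA than in sham (adjusted permutation p = 0.0484). Without passing, the mean was 5.80 with CsA against 6.25 in sham in the frontal lobe. At 1 day in the hippocampus and amygdala it was 6.09 against 6.38 in sham, also without passing. Both differences from sham that passed were at the edge of the threshold. They were lost with a pseudocount of 1 (adjusted permutation p = 0.0596 and 0.0524) and without the libraries under 1000000 counts (adjusted permutation p = 0.0709 and 0.0695). Leaving out any of 16 and 20 single libraries also lost them, while the 1 week difference from 1 day was kept in all 25 such cases. That 1 week difference was not tested within animal codes. Among codes beginning with 11 the frontal differences from sham were -0.66 at 1 day and -0.56 with CsA. Those of the hippocampus and amygdala were -0.56 and -0.60. Among codes beginning with 12 or 13 they were, in the same order, -0.19, -0.09, 0.15 and -0.075, and none passed in either set of codes.

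**Figure D4:**
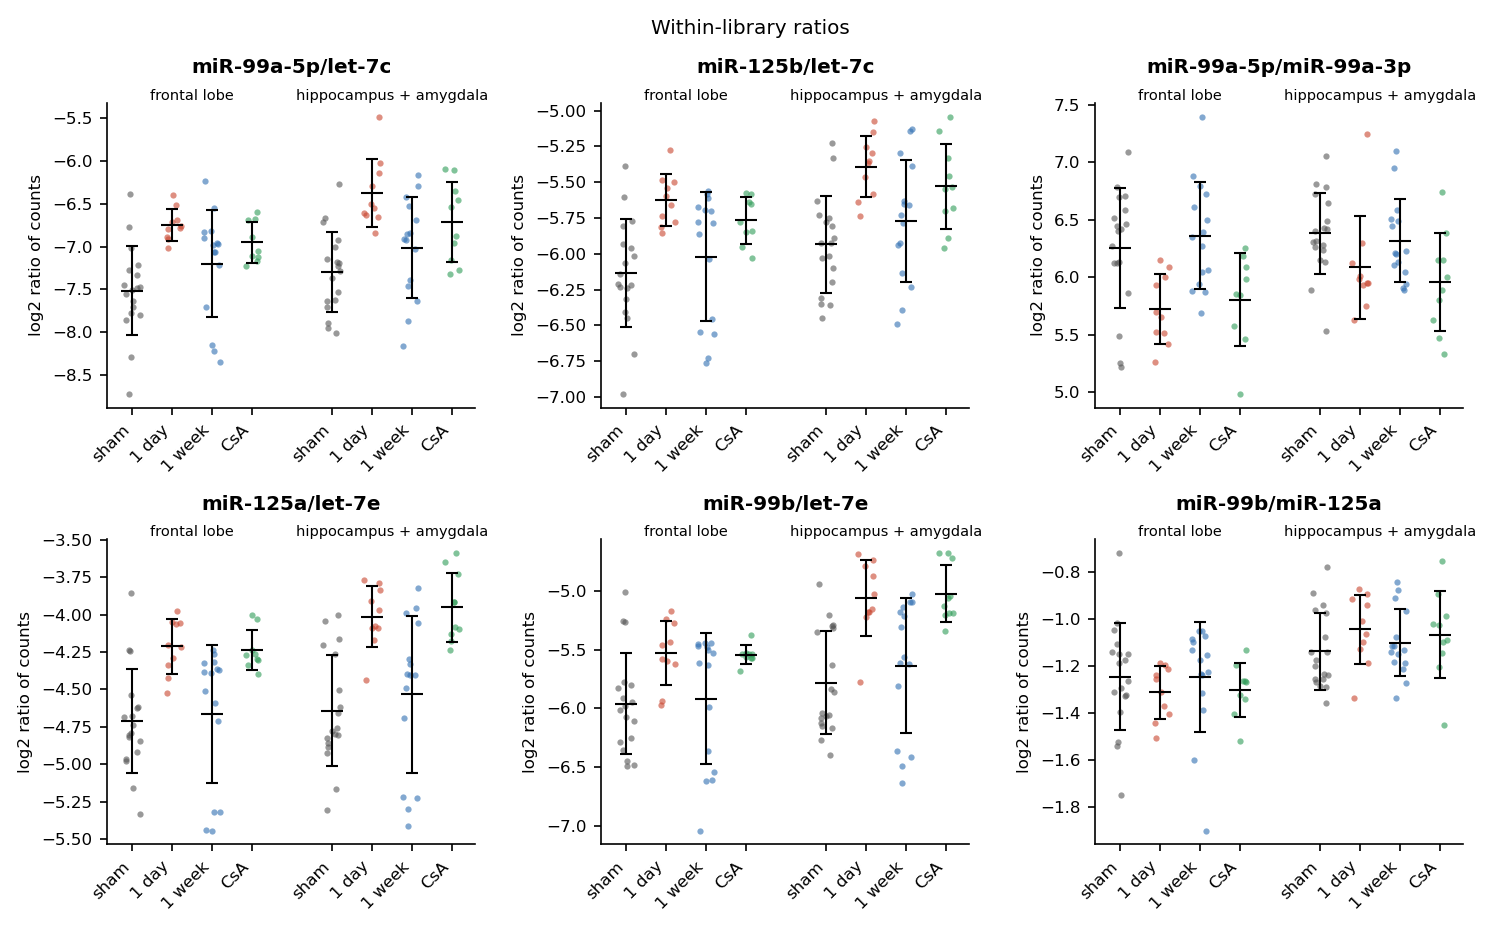
Log2 ratio of 2 counts within each library (y axis, count + 0.5) by group and region; points are libraries, bars the mean and SD. The 4 ratios to let-7c or let-7e have higher means at 1 day and with CsA than in sham, past the threshold in 15 of 16 tests (not for miR-125b over let-7c with CsA in the frontal lobe), while that of miR-99b to miR-125a differed by at most 0.09 between groups.

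Between the regions of the same animals, 17 of 48 ratio tests passed. miR-99b gained on miR-125a in the hippocampus and amygdala by 0.27 at 1 day (9 of 10 animals, adjusted permutation p = 0.0285) and by 0.28 with CsA (9 of 9 animals, adjusted exact permutation p = 0.0234). miR-125a gained on miR-125b by 0.09 at 1 week (13 of 15 animals, adjusted permutation p = 0.0374, lost without any of 6 animals with adjusted p up to 0.0592) and by 0.29 with CsA (9 of 9 animals, adjusted exact permutation p = 0.0234). With CsA miR-99a-5p lost 0.50 on miR-99b (8 of 9 animals, adjusted exact permutation p = 0.0312). In sham miR-100 gained on let-7a by 0.345 (14 of 18 animals, adjusted permutation p = 0.0234), which was the only sham ratio that passed.

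Within groups some members varied together from library to library. Deviations of log2 CPM from the group means were correlated over the 52 frontal libraries and the 53 of the hippocampus and amygdala, 30 relations in all, with 1e-05 the smallest p the permutations can give. miR-99a-5p and miR-100 had r = 0.834 and 0.828 (rho = 0.801 and 0.796), each at that smallest permutation p, with r = 0.797 and 0.73 after the 2 farthest libraries were left out. miR-125a and miR-99b, which flank let-7e, had r = 0.888 and 0.755 (rho = 0.879 and 0.722). miR-125a and miR-125b had r = 0.799 and 0.676 (rho = 0.733 and 0.625). All of these had an adjusted permutation p of 4.29e-05 for r and from 6e-05 to 0.0001 for rho. Leaving out the 2 farthest libraries gave r = 0.852 and 0.738 for miR-125a with miR-99b and r = 0.755 and 0.597 for miR-125a with miR-125b.

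miR-99b and miR-125b had r = 0.611 (rho = 0.542, adjusted permutation p = 4.29e-05 and 0.0003) in the frontal lobe, 0.698 without the 2 farthest libraries, and r = 0.263 (adjusted permutation p = 0.126) in the hippocampus and amygdala. miR-99a-5p and miR-100 had no relation with miR-99b, miR-125a or miR-125b that passed: miR-99a-5p had r = -0.00662 and -0.124 with miR-125a, and miR-100 had r = 0.221 and -0.251 with miR-125b, a pair encoded next to the same let-7a gene (adjusted permutation p from 0.14 to 0.962). The 2 arms of miR-99a had r = 0.107 and 0.308 (rho = -0.0493 and 0.345, adjusted permutation p = 0.538 and 0.0683 for r, 0.873 and 0.0302 for rho). miR-99a-3p ran against miR-125a in the frontal lobe, with r = -0.557 and rho = -0.559 (adjusted permutation p = 0.000187 and 0.000129), and with r = -0.44 without the 2 farthest libraries. There it also ran against miR-99b (r = -0.475, rho = -0.421, adjusted permutation p = 0.00167 and 0.00753) and miR-125b (r = -0.382, rho = -0.406, adjusted permutation p = 0.0145 and 0.00909), with r = -0.46 and -0.338 without the 2 farthest libraries. With miR-125a in the hippocampus and amygdala it was r = -0.261 (adjusted permutation p = 0.126). Within codes beginning with 11 and within all other codes the correlation of miR-99a-5p with miR-100 was 0.93 and 0.799 in the frontal lobe, and that of miR-125a with miR-99b was 0.957 and 0.861. Values within a library share its scaling and depth, and near-identical members may share reads; the part of these was not tested.

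**Figure D5:**
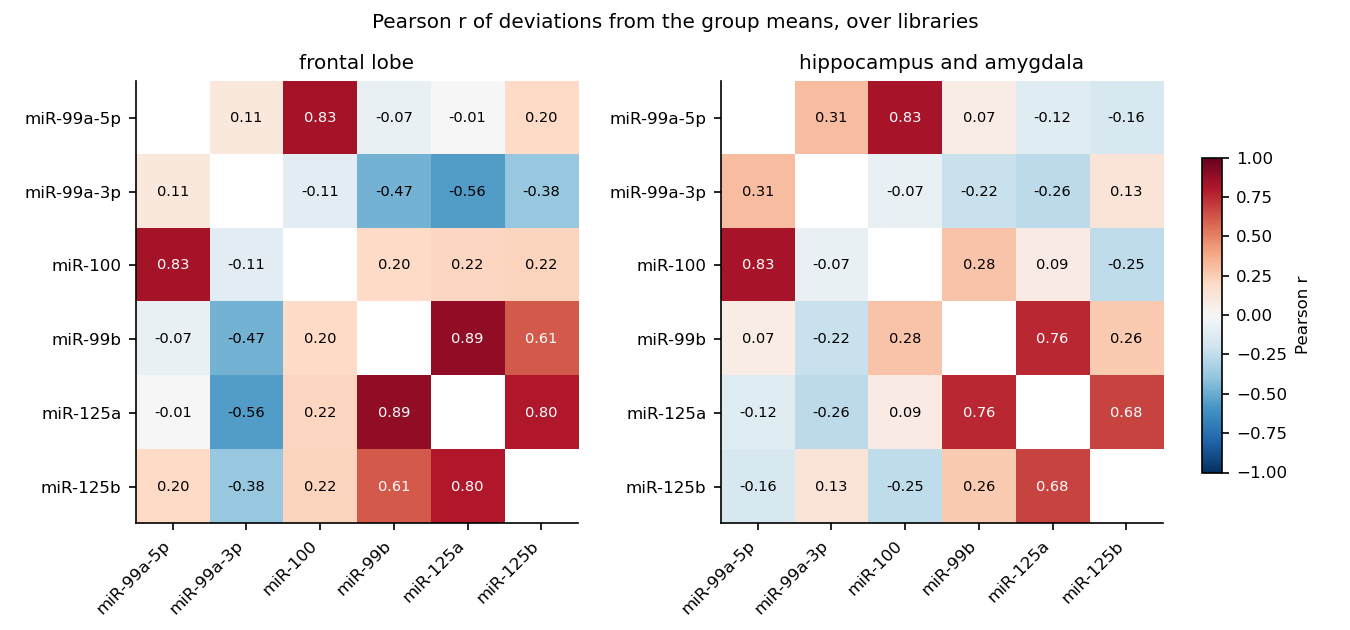
Pearson r between members of their deviations from the group means in log2 CPM, over 52 frontal libraries (left) and 53 libraries of the hippocampus and amygdala (right); red is positive, blue negative. The strongest positive pairs in the frontal lobe are miR-99b with miR-125a (0.888), miR-99a-5p with miR-100 (0.834), miR-125a with miR-125b (0.799) and miR-99b with miR-125b (0.611).

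The 2 regions of an animal were compared in the same way. Over the 52 animals with both regions, r between the deviations in the 2 regions was 0.03 for miR-100, 0.0334 for miR-125a, 0.0402 for miR-99b, 0.0891 for miR-125b and 0.107 for miR-99a-5p (rho from 0.0304 to 0.17, adjusted permutation p = 0.834 for r in each). For miR-99a-3p it was 0.345 (rho = 0.335, adjusted permutation p = 0.0724 over 6 relations for r and 0.0923 for rho), and 0.281 without the 2 farthest animals. It was 0.473 among the 19 animals with codes beginning with 11 and 0.272 among the other 33.

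The miRNAs outside the families whose deviations were most like those of a member differed between the 2 arms of miR-99a. For miR-99a-5p they were miR-425-5p (r = 0.596), miR-129a-3p (0.557) and miR-490 (0.519) over the 52 frontal libraries and miR-26a (0.645), miR-425-5p (0.644) and miR-181a (0.596) over the 53 of the hippocampus and amygdala. For miR-100 the list began with miR-425-5p (0.679) and miR-26a (0.66) in the frontal lobe and with miR-26a (0.804) and miR-425-5p (0.775) in the hippocampus and amygdala. For miR-99a-3p it was miR-30b-5p (0.839), miR-15b (0.751) and miR-29a-3p (0.748) in the frontal lobe and miR-29a-3p (0.776), miR-130a (0.751) and miR-30b-5p (0.736) in the hippocampus and amygdala.

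For the let-7e cluster the most alike were others again. miR-125a went with miR-361-5p (0.885), miR-2320-5p (0.856) and miR-744 (0.853) in the frontal lobe and with miR-324 (0.66), miR-744 (0.646) and miR-1306-5p (0.644) in the hippocampus and amygdala. miR-99b went with miR-342 (0.817), miR-2320-5p (0.814) and miR-489 (0.812) in the frontal lobe and with miR-92b-3p (0.785), miR-1343 (0.776) and miR-744 (0.723) in the hippocampus and amygdala. miR-125b went with miR-874 (0.767), miR-361-5p (0.765) and miR-320 (0.692) in the frontal lobe, and at most 0.537 was reached in the hippocampus and amygdala, by miR-361-3p.

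Among the superfamily relatives of the miR-99 members, miR-10a-5p fell at 1 day by 1.41 on the log2 scale in the frontal lobe and by 1.51 in the hippocampus and amygdala (adjusted p = 0.000502 and 0.000386), from a median of 3.26 to 1.28 CPM and of 2.90 to 1.38 CPM. With CsA it fell by 1.20 and 1.06 (adjusted p = 0.00656 and 0.0194). miR-10b had log2 differences of -0.22 and 0.15 at 1 day, without passing. Both were listed at 0 in at least 1 frontal sham library. Frontal counts of miR-10a-5p were 0 to 27 in sham and 7 to 23 at 1 day. Its highest frontal sham level, 15.55 CPM, was in replicate 15, the library of 98008 counts. The tests of miR-10a-5p and miR-10b were not repeated with the log10 total, within codes or with libraries left out.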

How the data were processed

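Small RNA libraries had been prepared with the QIAseq miRNA kit, per the labels' protocols. The authors deposited 1 whole-number count for each mature miRNA entry in each library. Trimming was by Trimmomatic 0.39 and cutadapt 1.9.1, per the submitters' processing notes; for the aligner, the build, the annotation and molecular identifiers the sources used here say nothing. The 542 entries were reduced to 448 miRNAs by keeping 1 entry per mature name and 1 of any entries whose counts differed by under 0.01 of the larger (total 100 or more). edgeR 4.0.16 in R 4.3.3 tested the counts (TMM, filterByExpr with minimum count 10, robust quasi-likelihood fit, Benjamini-Hochberg over all miRNAs tested, threshold 0.05, 2-sided), with 1 fit per region and, between regions, the animal as block. The pairing comes from the animal code: the 2 libraries of the same animal, as deviations from group means, correlated at a median r of 0.253 over 52 animals, against -0.00318 for different animals. Ratios and correlations were tested by permutation (exact for a group under 10 libraries, otherwise 100000 resamples). The scripts were tested on simulated data. Alternatives were RLE scaling, DESeq2 1.42.0, no filter, entries not merged, let-7 left out, log10 total, shallow libraries, animal codes and each library left out; those by code and by left-out library for ratios were added after seeing the data. Named by rule were the members, their let-7 neighbours, superfamily relatives and 3 most alike miRNAs. Members and lists were chosen with earlier results of these data known.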

Additional observations from a re-analysis of the deposited data

Results flagged for a closer look

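A sample far from the others of its group was looked for in the 72 combinations of member or ratio with a group of 9 or 10 libraries, where chance alone gives about 1 in 20, and 9 were found. Replicate 10 of the 1 day group in the hippocampus and amygdala accounts for 6 of them. It held 4663 CPM of miR-100, against 2289 CPM in the next library, and 5997 CPM of miR-99a-5p, against 3233 CPM. Its log2 ratios were 0.10 for miR-99a-5p to miR-125b (next -0.89), -0.26 for miR-100 to miR-125b (next -1.42), 7.25 for miR-99a-5p to miR-99a-3p (next 6.30) and -5.98 for miR-100 to let-7a (next -6.75), each the highest of its group. Its total of 9982247 counts was ordinary, and so were its levels of miR-125b (5580 CPM), miR-99b (1113 CPM) and miR-99a-3p (39.4 CPM). It was also highest in miR-26a, with 37180 CPM against at most 27330 in the others. The frontal library of the same animal held 1804 CPM of miR-100 and 2368 CPM of miR-99a-5p, inside the range of its group.

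Among CsA libraries, replicate 5 of the hippocampus and amygdala had 9203 CPM of miR-125b, against 7364 CPM in the next. Replicate 5 of the frontal lobe had the highest log2 ratio of miR-99b to let-7e, -5.37 against -5.52, in a group whose SD was 0.08. At 1 day, replicate 1 of the hippocampus and amygdala had the lowest such ratio, -5.78 against -5.22.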

How the results depend on the processing

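Of the recomputed values of single members, without those that left out a library, 698 stayed on the same side of the threshold (56 of them, none called, with a change of sign, at most 0.318 in size). Of the rest 34 calls were lost with the same sign, 17 were gained and 1 was lost with a change of sign. The last was miR-125b at 1 day in the frontal lobe, at 0.036 among codes beginning with 12 or 13 (adjusted p = 0.906, edgeR). At 1 day in the frontal lobe 4 members passed, against 2 with RLE scaling, 2 without let-7, 0 with the log10 total as covariate (3 at an unadjusted p under 0.05), 1 among codes beginning with 11 and 0 among 12 or 13. In the hippocampus and amygdala at 1 day 2 passed, against 0 with the log10 total (3 unadjusted), 4 without libraries under 1000000, 1 among codes 11 and 0 among 12 or 13. With CsA against sham 1 passed in each region, against 0 with the log10 total (1 unadjusted in the frontal lobe, 2 in the other), 0 among codes 12 or 13 and, in the frontal lobe, 0 among codes 11. CsA against 1 day in the hippocampus and amygdala went from 0 to 1 with DESeq2, and 1 week against 1 day there from 0 to 1 with entries not merged. The cause was not tested.

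With each library left out in turn, the count of members ranged from 2 to 4 at 1 day and from 1 to 3 with CsA against sham in the frontal lobe. For the hippocampus and amygdala it ranged from 1 to 4 at 1 day, from 1 to 2 with CsA against sham, from 0 to 3 with CsA against 1 day and from 0 to 1 for 1 week against 1 day. The calls of miR-99a-3p and the frontal call of miR-125a were kept in every such case. Without the replicate block 3, 5, 3 and 5 members differed between regions in sham, at 1 day, at 1 week and with CsA, against 4, 4, 3 and 5 with it. miR-99a-5p was lost in sham (adjusted p = 0.101) and miR-100 gained at 1 day (adjusted p = 0.0491). Of all 298 miRNAs 110, 109, 94 and 152 were called without the block, against 141, 139, 128 and 170 with it. Of the 23 ratio calls, 18 passed with a pseudocount of 1 and 18 without shallow libraries.

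Over the whole table edgeR called 127 miRNAs at 1 day in the frontal lobe, against 56 with the log10 total, 94 among codes 11 and 0 among codes 12 or 13 (49 unadjusted). The same counts were 141, 57, 110 and 0 (59 unadjusted) for 1 day in the hippocampus and amygdala, 97, 20, 11 and 0 (27 unadjusted) for CsA in the frontal lobe, and 59, 2, 48 and 0 (23 unadjusted) for CsA in the other tissue. Calls at 1 day in the hippocampus and amygdala split into 82 higher and 59 lower, and 81 and 94 with entries not merged; with CsA there into 32 and 27, and 25 and 32 with RLE scaling. DESeq2 called 1 and 3 at 1 week against sham, where edgeR called 0 and 1. Depth limits miR-99a-3p most, with a lowest count of 1.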
